A study of Mus musculus with 12 samples.

Results

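The cytosolic nucleic-acid sensors and their adaptors were followed on 12 arrays of mouse bone marrow-derived macrophages, as 8 genes chosen by name among 19937 genes tested. These 8 genes were chosen with earlier results of these data known. They are the RIG-I-like receptors Ddx58 (RIG-I), Ifih1 (MDA5) and Dhx58 (LGP2), the RNA-activated kinase Eif2ak2 (PKR), the Z-nucleic acid sensor Zbp1, the DNA sensor Cgas (older symbol Mb21d1), and the adaptors Mavs and Sting1 (older symbol Tmem173). All 8 were on the array, each as a single probe set. The cells came from C57BL/6 marrow grown in medium conditioned by L929 cells, which secrete the growth factor CSF1, and were used on day 7. The 4 groups of 3 arrays were Hdac3 +/- cells, which the submitters call wild type, and Hdac3 -/- cells, each at rest (untreated) or 4 h after the addition of 100 ng/ml lipopolysaccharide (LPS, the bacterial ligand of TLR4). The controls therefore also lack an Hdac3 allele, and the sources used here do not give how the gene was deleted or in which cells.

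RIG-I and MDA5 are helicases that bind viral double-stranded RNA in the cytosol and pass the signal through caspase recruitment domains to MAVS on the mitochondrial surface. LGP2 is a related helicase without these domains that tunes the other two. cGAS binds cytosolic DNA and makes the second messenger cGAMP, which activates STING on the endoplasmic reticulum. MAVS and STING both recruit the kinase TBK1 and the factors IRF3 and IRF7, which switch on type I interferon genes. PKR phosphorylates the translation factor eIF2 alpha when it binds double-stranded RNA, and ZBP1 engages RIPK3 and the necroptosis executor MLKL. Several of these sensors are themselves induced by interferon, through a complex that holds STAT2 and IRF9 and binds the interferon-stimulated response element.

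The promoter windows of 5 of the 8 genes (Ddx58, Ifih1, Eif2ak2, Cgas and Mavs) were in the RefSeq-based table used here (build GRCm38.p6, 250 bases before to 50 after the start), and those of 3 are shown because these genes moved together. Dhx58, Zbp1 and Sting1 had no window in that table. The windows were searched on both strands for the response element core GAAANNGAAA, for the same half-sites at a spacing of 1 base, GAAANGAAA, and for the STAT palindrome TTCNNNGAA, motifs chosen with the sequences in view. The sequences run 5′ to 3′ in the gene's direction, and capitals mark the half-site matches. The first is the full 250 bases before the start of Ddx58 (minus strand, chr4:40239826-40240075), and the 30-base windows lie at chr4:40239804-40239833 (Ddx58), chr2:62646206-62646235 (Ifih1) and chr17:78882535-78882564 (Eif2ak2), all on the minus strand.
Ddx58 upstream: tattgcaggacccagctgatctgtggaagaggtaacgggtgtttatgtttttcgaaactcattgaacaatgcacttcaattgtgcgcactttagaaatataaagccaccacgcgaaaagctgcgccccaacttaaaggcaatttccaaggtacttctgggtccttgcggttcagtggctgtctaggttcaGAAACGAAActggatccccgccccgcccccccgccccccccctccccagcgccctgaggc
Ddx58 at the start: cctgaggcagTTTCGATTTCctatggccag
Ifih1: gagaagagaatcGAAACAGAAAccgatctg
Eif2ak2: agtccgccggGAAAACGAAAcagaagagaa

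The core GAAANNGAAA was present in the windows of Ddx58 (bases 3 to 12 after the start, read on the opposite strand as GAAATCGAAA), Ifih1 (bases 33 to 42) and Eif2ak2 (bases 19 to 28). It was present in 3.44% of all 32841 windows of 300 bases. Ddx58 also held GAAACGAAA at bases -60 to -52, a form present in 3.17% of windows. The STAT palindrome matched in Eif2ak2 alone of the 5, at bases -178 to -170, and in 8.3% of all windows. The windows of Cgas and Mavs held no match, and no match overlapped a match to another motif. A match describes the sequence and is no measured binding site.

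**Figure D1:**
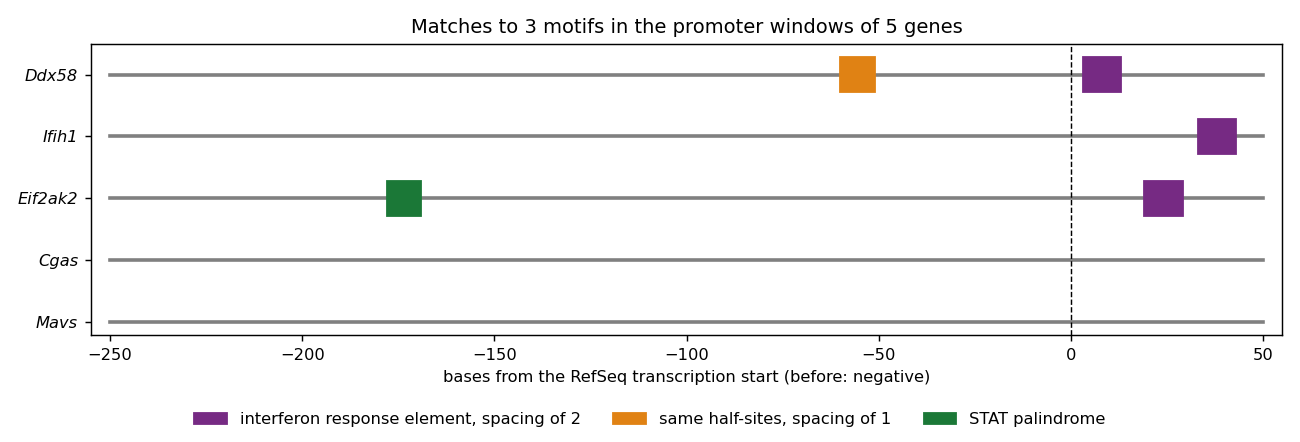
Matches to the 3 motifs in the promoter windows of 5 genes, by distance in bases from the RefSeq transcription start (dashed line). Boxes mark the response element core (purple), the half-sites at a spacing of 1 base (orange) and the STAT palindrome (green), and the windows of Cgas and Mavs hold no box.

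Values are log2 signals of a probe set, so signals of different genes are not compared with each other. The ± after a difference is 1 SE from limma, fitted with n = 3 arrays in each group, and p-values carry the Benjamini-Hochberg adjustment over all 19937 genes. Precision is limited by the number of arrays. The labels do not state that replicates are different animals or cultures. The p-values then reflect only the spread between these arrays, which may be technical apart from the difference in sex pattern given below. Hdac3 itself read 8.66 to 9.42 on the 6 +/- arrays and 6.91 to 7.52 on the 6 -/- arrays. It was lower in the arrays labelled -/- (mean 7.43 against 9.17 untreated, adjusted p = 1.66e-05, and 7.11 against 8.86 after LPS, adjusted p = 5.91e-06), though the labels do not say which exons are deleted and whether the probe set lies in them. The log2 of the summed signal of 8 macrophage markers lay between 14.95 and 15.18 on the 12 arrays. Its brightest probe sets dominate this sum (group means of Lyz2 from 13.27 to 13.47). Within that list Fcgr1, an Fc receptor, was lower in -/- cells (2.72-fold at rest and 5.31-fold after LPS) and Mertk, a receptor for dying cells, fell with LPS (4.03-fold in +/- and 6.12-fold in -/- cells). Cd14 went the other way, from a mean of 10.86 to 11.97 in +/- and from 10.73 to 12.15 in -/- cells. With LPS 2 of the 8 were called higher and 3 lower in +/- cells (9.6% and 15.5% of all genes). In -/- cells 1 was called higher and 1 lower (3.69% and 5.18%). Of markers of other cells, 5 of 6 for dendritic cells, 5 of 8 for neutrophils, 4 of 5 for lymphoid cells, all 5 for mast cells, basophils and eosinophils, and 1 of 4 for stroma stayed below the array's median signal on every array. The neutrophil sum reached 9.03 to 10.39 in LPS-treated -/- arrays and 7.74 to 9.86 in LPS-treated +/- arrays, against 7.43 to 8.74 and 7.62 to 7.99 untreated. S100a8 was the marker that moved with this sum, with means of 5.03 and 7.27 in +/- and 7.07 and 9.23 in -/- cells without and with LPS, and passed in no comparison. Of the other 7 neutrophil markers only Ngp passed, lower in resting -/- cells (-1.18, adjusted p = 0.0429). The part of these markers in the results was not tested. Replicate 1 of both +/- groups carried Y-linked signal (Eif2s3y at 7.76 and 7.93, against 2.2 to 2.47 on the other arrays). Its Xist signal was low (3.93 and 3.2, against 9.67 to 10.97), a male pattern. The other +/- arrays and all 6 -/- arrays had the female pattern. The +/- arrays thus do not all come from 1 animal, and sex is not balanced between the genotypes. In cultures measured as bulk RNA, fewer cells of a type and less RNA per cell cannot be told apart.

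The RNA sensors and Zbp1 were lower at rest in Hdac3 -/- cells. In untreated cells 5 of the 8 genes fell (Ddx58, Zbp1, Ifih1, Dhx58 and Eif2ak2) and 0 rose, where 1.44% of all genes fell and 1.22% rose. Their log2 differences ran from -2.58 to -1.15. After LPS these 5, Cgas and Sting1 were lower in -/- cells and Mavs was higher, so that 7 of the 8 were lower (5.99% of all genes fell) and 1 was higher (9.69% rose). LPS raised these 5 genes in both genotypes, and lowered Mavs and Sting1 in both. In +/- cells 9.6% of all genes rose and 15.5% fell, and in -/- cells 3.69% rose and 5.18% fell. The arrays with and without LPS did not overlap for the 5 genes, all higher (18.1% of all genes in +/- and 12.6% in -/- cells), nor for Mavs and Sting1, both lower (18.6% and 15.7%).

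**Figure D2:**
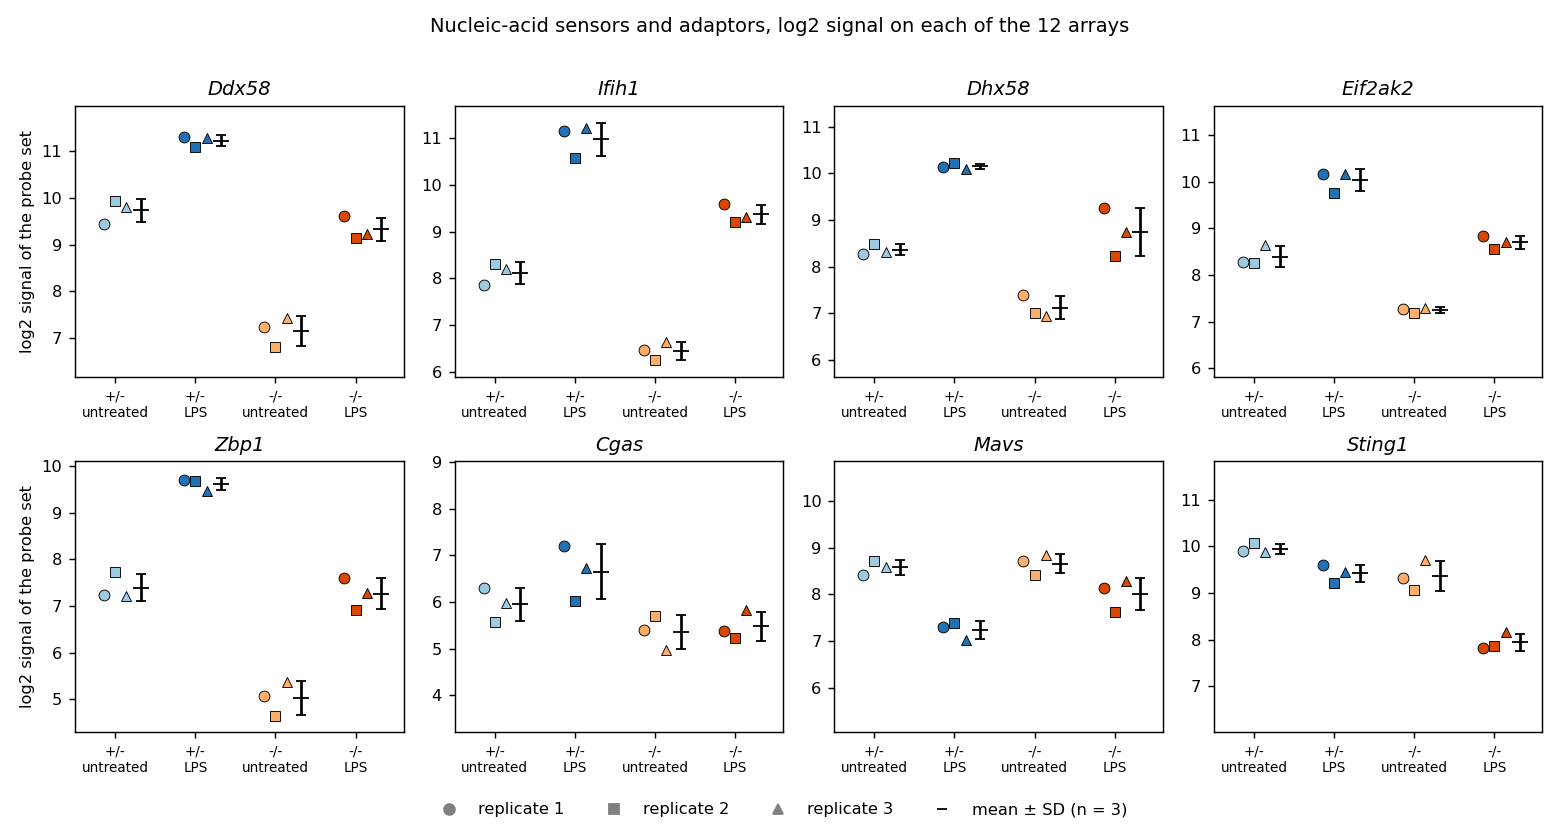
Log2 signal of the probe set of each gene (y axis, same span in every panel) on the 12 arrays, by genotype and treatment. Symbols are replicates and bars the mean ± SD of 3 arrays, and the untreated -/- arrays are the lowest for Ddx58, Ifih1, Dhx58, Eif2ak2 and Zbp1.

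Ddx58 encodes RIG-I, the sensor of short double-stranded RNA with a triphosphate end. Its log2 signal was 9.45, 9.94 and 9.80 in untreated +/- arrays and 7.22, 6.80 and 7.44 in untreated -/- arrays. After LPS it was 11.31, 11.09 and 11.28 in +/- arrays and 9.60, 9.15 and 9.23 in -/- arrays. The 4 groups thus stood in the order +/- LPS, +/- untreated, -/- LPS and -/- untreated, and only the middle pair overlapped. Ddx58 was 5.97-fold lower in untreated -/- cells (-2.58 ± 0.187, adjusted p = 2.78e-06). After LPS it was 3.73-fold lower (-1.90 ± 0.187, adjusted p = 1.61e-05). LPS raised it by 1.5 ± 0.187 in +/- cells (adjusted p = 6.3e-05) and by 2.17 ± 0.187 in -/- cells (adjusted p = 5.88e-06). The difference of these responses, 0.68 (95% interval 0.11 to 1.25), did not pass (adjusted p = 0.308).

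Ifih1 encodes MDA5, the sensor of long double-stranded RNA. Untreated +/- arrays gave 7.86, 8.31 and 8.19, and untreated -/- arrays 6.46, 6.25 and 6.64. LPS-treated arrays gave 11.15, 10.57 and 11.22 in +/- and 9.59, 9.20 and 9.33 in -/- cells. No groups overlapped, and unlike for Ddx58 the LPS-treated -/- arrays lay above all untreated +/- arrays. Ifih1 had the largest LPS responses of the 8 genes, 2.86 ± 0.190 in +/- (7.25-fold, adjusted p = 2.63e-07) and 2.92 ± 0.190 in -/- cells (7.59-fold, adjusted p = 4.46e-07). The deficit of -/- cells was -1.67 ± 0.190 at rest (adjusted p = 0.000201) and -1.61 ± 0.190 after LPS (adjusted p = 8.44e-05). The 95% interval for the difference of the responses was -0.51 to 0.65 around 0.07 (adjusted p = 0.95).

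Dhx58 encodes LGP2, the helicase that modulates both. It read 8.26, 8.49 and 8.32 in untreated +/- and 7.40, 7.00 and 6.95 in untreated -/- arrays. With LPS it read 10.14, 10.22 and 10.10 in +/- and 9.25, 8.22 and 8.74 in -/- arrays. The LPS-treated -/- arrays were the most scattered of its groups (SD 0.515, against 0.0573 in LPS-treated +/- arrays) and overlapped the untreated +/- arrays. Dhx58 was lower in -/- cells by log2 values of -1.24 ± 0.212 at rest (adjusted p = 0.00503) and -1.41 ± 0.212 after LPS (adjusted p = 0.000542). LPS raised it by 1.79 in +/- (adjusted p = 4.01e-05) and by 1.62 in -/- cells (adjusted p = 0.000231), and the responses differed by -0.17 (interval -0.82 to 0.47, adjusted p = 0.867).

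Eif2ak2, the RNA-activated kinase PKR, varied little within its groups. Its log2 signal was 8.28, 8.25 and 8.65 in untreated +/- arrays and 7.26, 7.18 and 7.30 in untreated -/- arrays. It reached 10.17, 9.75 and 10.16 after LPS in +/- cells but 8.83, 8.56 and 8.71 in -/- cells. The LPS-treated -/- arrays overlapped the untreated +/- arrays and lay far below the LPS-treated +/- arrays. Its deficit in -/- cells was -1.15 ± 0.154 at rest (2.21-fold, adjusted p = 0.000799) and -1.33 ± 0.154 after LPS (2.51-fold, adjusted p = 6.83e-05). LPS raised it by 1.64 ± 0.154 in +/- (adjusted p = 5.32e-06) and 1.46 ± 0.154 in -/- cells (adjusted p = 3.7e-05), with a difference of -0.18 (interval -0.65 to 0.29, adjusted p = 0.804).

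Zbp1, which binds left-handed nucleic acid and can start necroptosis, was lower in -/- cells by nearly the same amount with and without LPS. Untreated arrays gave 7.24, 7.73 and 7.21 in +/- and 5.07, 4.65 and 5.38 in -/- cells. LPS brought these to 9.70, 9.69 and 9.47 in +/- and 7.59, 6.92 and 7.29 in -/- cells. The stimulated -/- arrays overlapped the resting +/- arrays, as they did for Ddx58, Dhx58 and Eif2ak2. The genotype difference of Zbp1 was -2.36 ± 0.212 at rest (5.13-fold, adjusted p = 2.14e-05) and -2.35 ± 0.212 after LPS (5.11-fold, adjusted p = 7.87e-06). Its LPS response was 2.23 in both genotypes (adjusted p = 6.07e-06 in +/- and 1.34e-05 in -/-), and the 95% interval of their difference was -0.64 to 0.65. The lowest signals of Zbp1, in untreated -/- cells, were near the median of all probe sets on an array, which lay between 5.19 and 5.37, and the size of its differences from that group is uncertain for this reason.

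Cgas, the enzyme that turns cytosolic DNA into the messenger cGAMP, was also dim and scattered. It read 6.29, 5.58 and 5.98 in untreated +/- and 5.40, 5.70 and 4.98 in untreated -/- arrays. After LPS it read 7.21, 6.02 and 6.72 in +/- and 5.38, 5.24 and 5.83 in -/- arrays. Neighbouring groups in the order of its means all overlapped, and of the 4 comparisons only that of the genotypes after LPS had groups without overlap. There Cgas was 2.25-fold lower in -/- cells (-1.17 ± 0.285, adjusted p = 0.0132). That call was lost without +/- LPS replicate 3 (adjusted p = 0.0527) or -/- LPS replicate 1 (0.052; over all alternatives 0.00227 to 0.0527). At rest the difference was -0.59 (interval -1.2 to 0.02, adjusted p = 0.419).

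The LPS response of Cgas was 0.70 ± 0.285 in +/- cells (adjusted p = 0.0879) and 0.12 ± 0.285 in -/- cells (adjusted p = 0.884). With the replicate number as a block within genotype the same 0.70 of +/- cells passed (adjusted p = 0.0309), though the numbers are not shown to pair arrays. It also passed without +/- LPS replicate 2 (1.02, adjusted p = 0.0169; over all alternatives 0.0169 to 0.26). The difference of the responses was -0.58, with a wide interval of -1.44 to 0.29 (adjusted p = 0.642).

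Sting1, the adaptor that cGAMP activates, was lowest in LPS-treated -/- cells. Its log2 signal was 9.89, 10.07 and 9.89 in untreated +/- and 9.32, 9.07 and 9.70 in untreated -/- arrays. After LPS it was 9.59, 9.22 and 9.44 in +/- but 7.82, 7.86 and 8.15 in -/- arrays. The LPS-treated -/- arrays stood clear below all others, while LPS-treated +/- and untreated -/- arrays overlapped. LPS lowered Sting1 by 1.42 (2.67-fold; SE 0.169, adjusted p = 0.000111) in -/- cells. In +/- cells the change was -0.53 ± 0.169 (adjusted p = 0.0334).

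The genotype difference of Sting1 was -1.47 ± 0.169 after LPS (2.77-fold, adjusted p = 6.41e-05) and -0.59 ± 0.169 at rest (interval -0.95 to -0.23, adjusted p = 0.0953). At rest it passed without -/- untreated replicate 3 (-0.76, adjusted p = 0.0356; over all alternatives 0.035 to 0.308). The 2 LPS responses differed by -0.88 (interval -1.40 to -0.37), with an unadjusted p of 0.00255 but an adjusted p of 0.105. The RefSeq table places Sting1 on the same chromosome as Hdac3, and any part of this in its genotype difference was not tested. The fall in +/- cells rested on single arrays: it was lost without any of the 3 untreated +/- replicates (adjusted p 0.0595, 0.085 and 0.0635) or without +/- LPS replicate 2 (0.122) or 3 (0.074), and after cyclic loess (-0.33, adjusted p = 0.186; over all alternatives 0.0171 to 0.186).

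Mavs, the adaptor below RIG-I and MDA5, fell with LPS while both sensors rose. It read 8.41, 8.72 and 8.59 in untreated +/- and 8.71, 8.42 and 8.83 in untreated -/- arrays. With LPS it read 7.29, 7.39 and 7.02 in +/- and 8.13, 7.62 and 8.28 in -/- arrays. The untreated groups overlapped, and the LPS-treated +/- arrays were the lowest. LPS lowered Mavs 2.53-fold in +/- cells (-1.34 ± 0.181, adjusted p = 0.000119) and 1.57-fold in -/- cells (-0.65 ± 0.181, adjusted p = 0.0398). After LPS it was higher in -/- cells, by 0.78 ± 0.181 (1.71-fold, adjusted p = 0.0106), whereas at rest the difference was 0.08 (interval -0.31 to 0.47, adjusted p = 0.929).

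The responses of Mavs differed by 0.69 (interval 0.14 to 1.24, adjusted p = 0.274). The higher level after LPS was lost without +/- LPS replicate 3 (adjusted p = 0.0562) or -/- LPS replicate 3 (0.0629; over all alternatives 0.00171 to 0.0629). The fall in -/- cells did not pass under 8 of 23 alternatives, over which its adjusted p ran from 0.00435 to 0.18. These included leaving out -/- untreated replicate 1 (0.135) or 3 (0.154), -/- LPS replicate 1 (0.0784) or 2 (0.18), and both arrays with Y-linked signal (0.0517). Leaving out both of the latter changed no other call of the 8 genes.

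**Figure D3:**
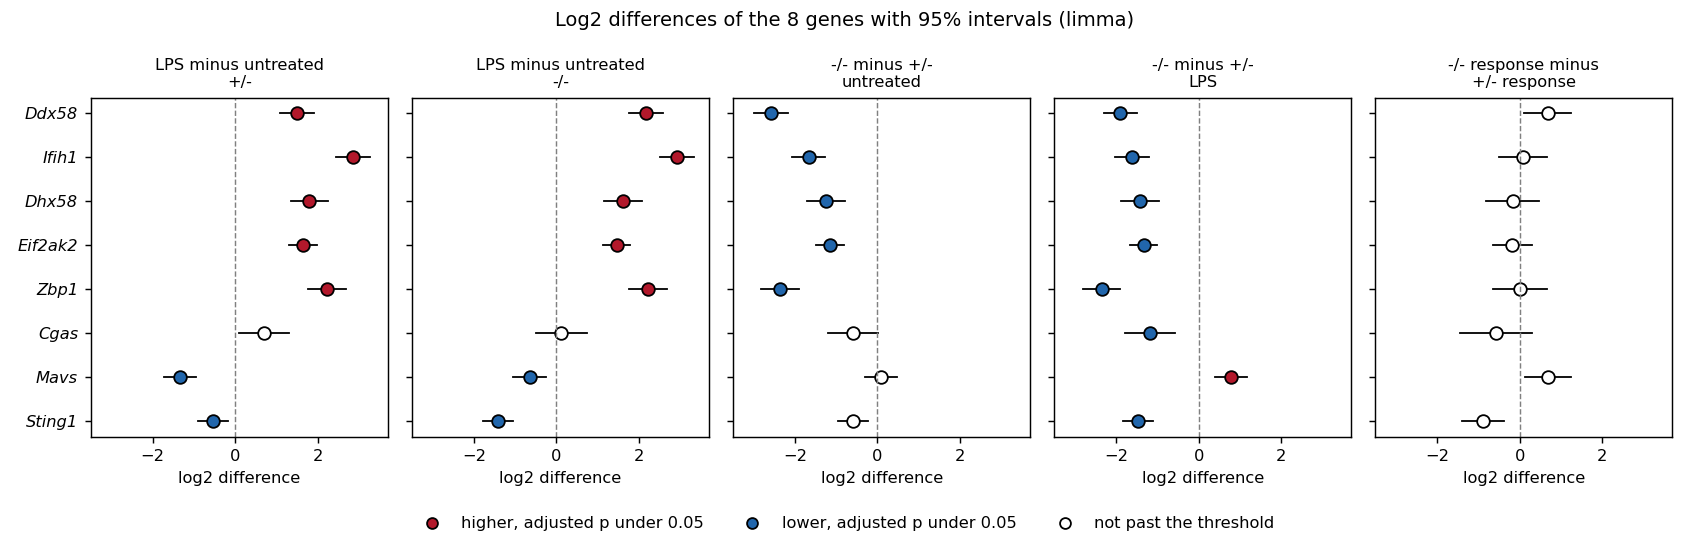
Log2 differences of the 8 genes in the 5 comparisons (x axis, log2 scale), with 95% intervals of limma. Filled points passed an adjusted p of 0.05 (red higher, blue lower), and in the last panel, the difference of both LPS responses, none of the 8 did.

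None of the 8 genes passed the limma test for a difference of the LPS responses, while 0.306% of all genes passed upward and 0.777% downward. Without the adjustment 3 of them, Ddx58, Mavs and Sting1, had a limma p under 0.05, and with array weights Sting1 passed (-0.94, adjusted p = 0.0324). In untreated cells the arrays of both genotypes did not overlap for 6 of the 8 genes, the 5 that fell and Sting1, all lower in -/- cells (8.35% of all genes did so). After LPS they did not overlap for any of the 8, with 7 lower in -/- cells (14.5% of all genes) and Mavs higher (17.3%). The median log2 difference of the 8 genes was -1.19 at rest and -1.44 after LPS, against 0.01 and -0.04 over all genes. The comparisons share groups of arrays, so they are no independent repeats of each other.

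Across the 12 arrays the 5 genes Ddx58, Ifih1, Dhx58, Eif2ak2 and Zbp1 correlated with each other at Pearson r from 0.93 to 0.99 (10 pairs). Mavs correlated with the 5 at -0.88 to -0.73, Cgas at 0.65 to 0.75 and Sting1 at -0.21 to 0.1. These values describe 12 arrays that share the same 4 groups. By the same measure, the genes outside the 8 most like Ddx58 were Oas1a (0.994), Ddx60 (0.992) and Samd9l (0.990). Those most like Zbp1 were Ifit2 (0.994), Ddx60 (0.993) and Sppl2a (0.992), and those most like Ifih1 were Mx1 (0.994), Mx2 (0.992) and Gbp3 (0.990). Dhx58 was followed most closely by Slfn8 (0.990), Pnp (0.985) and Trim30d (0.981), and Eif2ak2 by Zc3hav1 (0.996), Slfn10-ps (0.991) and Slfn8 (0.989). Oas1a, Ifit2, Mx1, Mx2 and Gbp3 are known as interferon-induced genes, and the other nearest genes were not classified.

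The nearest genes to the other 3 were different genes. Mavs was most like Adi1 (0.988), Smpd2 (0.988) and Vps26c (0.987), and Sting1 most like Dpysl2 (0.976), Pros1 (0.968) and Pcmtd1 (0.954). Cgas was most like Tcof1 (0.973), Yipf6 (0.960) and Olfr772 (0.955).

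Other genes of the pathway were grouped by role into 8 lists of 64 measured genes, also chosen with earlier results of these data known. At rest 7 of the 64 (10.9%) were lower and 2 (3.12%) higher in -/- cells, beside 1.44% and 1.22% of all genes. Of 10 kinases, adaptors and factors below MAVS and STING, Irf7, the inducible interferon regulatory factor, fell by 3.00 (SE 0.209, adjusted p = 2.14e-06) in untreated -/- cells. Tbkbp1, a partner of TBK1, rose by 0.59 (adjusted p = 0.0202), a call lost without +/- untreated replicate 1 or 3 or -/- untreated replicate 1 or 3 (0.0601 to 0.0879; over all alternatives 0.00577 to 0.0879). The other 8 did not pass, and the median was 0.04. Of 9 measured genes of the type I interferon axis 2 fell, Stat2 (-1.80 ± 0.197, adjusted p = 0.000141) and Irf9 (-0.97 ± 0.160, adjusted p = 0.00404), which act together below the interferon receptor. The interferon genes Ifnb1, Ifna2 and Ifna4, named after their values were seen, had group means between 3.12 and 4.93 and passed in no comparison. These means lay below the median probe set of every array (5.19 to 5.37). With no detection call in the values used here, they do not show whether these genes were expressed or changed.

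Of 9 enzymes that degrade or edit self nucleic acid, 3 fell in untreated -/- cells and 0 rose. They were the RNA editor Adar (-1.22 ± 0.144, adjusted p = 0.000275), the nucleotide hydrolase Samhd1 (-1.06 ± 0.132, adjusted p = 0.000403) and the DNA exonuclease Trex1 (-0.95 ± 0.174, adjusted p = 0.00802). Of 9 other DExD/H-box helicases proposed as sensors only Ddx60 passed, 2.97 lower on the log2 scale (mean 4.67 against 7.64, SE 0.206, adjusted p = 2.14e-06). Its signal in untreated -/- cells lay below the median probe set of every array, and with no detection call in the values used here the size of its differences from that group is uncertain. Of 8 negative regulators Tnfaip3, the ubiquitin-editing enzyme A20, was higher by 1.33 ± 0.201 (adjusted p = 0.00198). None of 8 positive cofactors, 8 effectors of PKR and ZBP1 or 3 other eIF2 alpha kinases passed. The smallest p in these lists belonged to Rnf135 (-0.49, adjusted p = 0.0952), Mlkl (-0.30, adjusted p = 0.519) and Eif2ak3 (-0.17, adjusted p = 0.79), and Rnf135 passed after cyclic loess (-0.54, adjusted p = 0.0405; over all alternatives 0.0405 to 0.303).

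After LPS 16 of the 64 (25%) were lower and 11 (17.2%) higher in -/- cells, beside 5.99% and 9.69% of all genes. Of the self nucleic acid enzymes 5 of 9 were lower in -/- cells and 0 higher (median -0.56), with Samhd1 at -1.99 ± 0.132 (adjusted p = 6.6e-07), the mitochondrial RNA-degrading enzyme Pnpt1 at -1.25 ± 0.169 and Adar at -1.21 ± 0.144 (3 of 9 without -/- LPS replicate 3). Among effectors of PKR and ZBP1 3 of 8 were lower and 1 higher: Mlkl, the executor of necroptosis, fell by 1.33 (SE 0.164, adjusted p = 0.000109) and the protease Casp8 by 1.03 (SE 0.199), while its adaptor Fadd was higher by 1.02 ± 0.148. Rnf135 (Riplet), the ubiquitin ligase that activates RIG-I, was lower by a log2 value of -1.57 ± 0.142 (adjusted p = 7.87e-06), and of 8 positive cofactors it was the 1 that was lower, while 2 were higher. Ddx60 remained lower, at -2.96 ± 0.206, and the helicase Dhx33 was higher by 0.86 ± 0.185.

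In the kinase and adaptor list 3 of 10 were lower in LPS-treated -/- cells and 3 higher, beside 5.99% and 9.69% of all genes. Among them Irf7 was at -1.83 ± 0.209, the TBK1 adaptor Azi2 at -0.86 ± 0.140 and Irf3 at 0.84 ± 0.140. The same shares of all genes apply to the counts of the lists that follow. In the interferon axis 3 of 9 were lower, among them Stat2 (-1.60 ± 0.197) and the receptor kinase Tyk2 (-0.77 ± 0.180). The third, the receptor kinase Jak1 (-0.45, adjusted p = 0.0457), lost its call without any one array other than +/- untreated replicate 1 or 3 or +/- LPS replicate 2 (13 of 22 alternatives, 0.0138 to 0.178). Irf9, lower at rest, was at -0.09 after LPS (adjusted p = 0.76). Of the 3 other eIF2 alpha kinases, the amino acid sensor Eif2ak4 (1.06 ± 0.176) and the endoplasmic reticulum stress sensor Eif2ak3 (0.76 ± 0.161) were higher in -/- cells, whereas PKR was lower. Negative regulators had 2 of 8 higher and 0 lower.

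Some of these counts of higher genes rested on single arrays, while the other eIF2 alpha kinases had 2 higher under every alternative run. Without +/- LPS replicate 3, -/- LPS replicate 1 or -/- LPS replicate 3 only 1 of the 10 kinases, adaptors and factors and 0 of the 8 positive cofactors were higher. The cofactors had 1 higher without +/- LPS replicate 1, +/- untreated replicate 1 or any untreated -/- array. The negative regulators had 0 higher without +/- LPS replicate 2 or -/- LPS replicate 2 or 3, and 1 without +/- LPS replicate 1 or 3 or -/- LPS replicate 1. The effectors had 2 higher without +/- untreated replicate 3, and the helicases 2 without +/- LPS replicate 1.

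LPS itself raised 22 of the 64 genes (34.4%) and lowered 12 (18.8%) in +/- cells, beside 9.6% and 15.5% of all genes. In -/- cells it raised 15 (23.4%) and lowered 1 (1.56%), beside 3.69% and 5.18%. A call in only 1 genotype is no test of a difference of the responses. In the limma test for that difference 4 of the 64 passed, Rnf135, Tnfaip3, Samhd1 and Azi2, and each call was lost without some single arrays. Irf7 (adjusted p = 0.0819) and Mlkl (0.0506) did not pass it. In +/- cells 6 of 10 kinases, adaptors and factors rose and 1 fell, with Irf7 at 2.25 ± 0.209 and Azi2 at 1.36 ± 0.140, and in -/- cells 3 rose, with Irf7 at 3.42 ± 0.209. Of the positive cofactors 4 of 8 rose and 2 fell in +/- cells (1 without +/- LPS replicate 3), led by Rnf135 (1.49 ± 0.142) and Trim25 (1.45 ± 0.148), the RIG-I ubiquitin ligase, and 3 rose in -/- cells, where Trim25 was at 1.40 ± 0.148. Ddx60 rose by 2.35 ± 0.206 in +/- cells and, from its dim level, by 2.36 ± 0.206 in -/- cells. Tnfaip3 rose by 3.47 ± 0.201 and 2.17 ± 0.201. In the interferon axis 3 of 9 rose in +/- cells (2 to 5 over the alternatives), with Stat2 at 1.5 ± 0.197. In -/- cells 3 rose as well (3 to 4), with Stat2 at 1.71 ± 0.197. Among effectors of PKR and ZBP1 3 of 8 rose and 1 fell in +/- cells, the latter Fadd (-1.22 ± 0.148). The other eIF2 alpha kinases fell in +/- cells, 3 of 3, with Eif2ak3 at -2.09 ± 0.161, and Eif2ak3 alone passed in -/- cells (-1.17 ± 0.161). The limma test for a difference of the responses passed for none of Eif2ak1, Eif2ak3 and Eif2ak4 (adjusted p = 0.807, 0.0727 and 0.0763). The call of Eif2ak1 in +/- cells (-0.62, adjusted p = 0.0352) was lost under 8 of 23 alternatives (0.0096 to 0.169), among them leaving out +/- untreated replicate 2 or 3 or any LPS-treated +/- array. Among the self nucleic acid enzymes 4 of 9 rose and 2 fell in +/- cells (1 without +/- untreated replicate 1 or +/- LPS replicate 3), and Trex1 (1.70 ± 0.174) and Adar (1.05 ± 0.144) rose in -/- cells. Mlkl rose by 1.93 ± 0.164 in +/- and by 0.89 ± 0.164 in -/- cells, where Ppp1r15b, a phosphatase subunit that reverses PKR's mark on eIF2 alpha, rose as well (0.75 ± 0.143, adjusted p = 0.00436, but 0.0547 with its probe sets averaged).

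**Figure D4:**
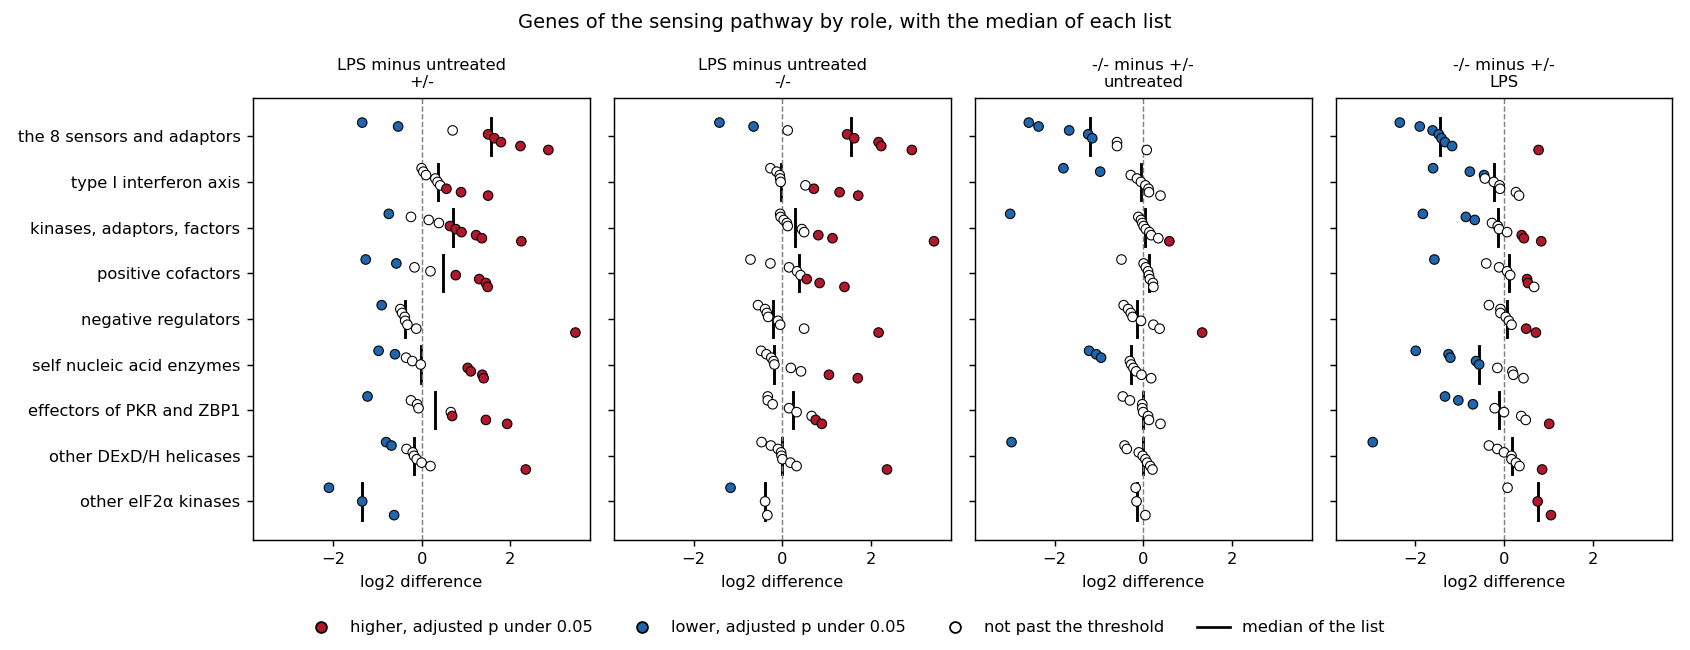
Log2 differences (x axis) of the 8 genes and of 8 lists of pathway genes in 4 comparisons, a point per gene, with a black bar at the median of each list. Filled points passed an adjusted p of 0.05 (red higher, blue lower), and at rest 5 of the 8 sensors and adaptors were lower in -/- cells while most points of the other lists lie near 0.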

How the data were processed

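RNA of the macrophages was hybridised to 12 Affymetrix whole-transcript arrays. The authors deposited a log2 signal for each probe set, made by RMA in affy, per the submitters' processing notes; the sources used here give no versions, settings or genome build. Of 28193 probe sets 21640 had 1 symbol in the platform annotation, 1321 several and 5232 none. The last 2 kinds were left out. For 954 genes with several probe sets the brightest was used, giving 19937 genes. RMA shrinks differences of dim probe sets, so folds are those of this scale.

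limma 3.58.1 (R 4.3.3) fitted a mean per group to all 12 arrays, with eBayes and Benjamini-Hochberg adjustment; an adjusted p under 0.05 was a call. The code was tested on simulated data. Python 3.11.15 and matplotlib 3.10.9 made tables and figures.

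The 8 genes and the lists were chosen with earlier results of these data known. The rule for naming took the 8 genes, Hdac3, up to 3 called genes of each list and comparison with the largest change (or that with the smallest p), and the 3 genes most correlated with each of the 8. Not every list gene that met this rule is given in the text. Deviations from group means correlated at 0.243, 0.327 and 0.223 between same-numbered untreated and LPS-treated +/- arrays, and at 0.09, 0.195 and -0.122 in -/- arrays. Differently numbered +/- arrays gave -0.305 to 0.107, but arrays of different genotype and number reached 0.514. Replicate 1 of both +/- groups shared the male pattern, which does not bear on the other replicates. The values therefore do not show that replicate numbers pair arrays. Alternatives were other normalizations, a filter on dim genes (log2 above 5 on 3 arrays), averaged probe sets, another variance model, array weights, fewer groups, replicate blocks and each array left out. Leaving out both arrays with Y-linked signal was added after seeing the data.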

Additional observations from a re-analysis of the deposited data

Results flagged for a closer look

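Of the 64 pathway genes 4 (6.25%) passed downward in the limma test for a difference of the LPS responses and 0 upward. Of all genes 0.777% passed downward and 0.306% upward. All 4 had a smaller response in Hdac3 -/- cells. Mlkl, at -1.04, did not pass (adjusted p = 0.0506), but did so under 6 of 22 alternatives. Rnf135 differed by -1.07 ± 0.201 (adjusted p = 0.0204), a call lost without +/- untreated replicate 1 (0.0511), -/- untreated replicate 1 (0.0727) or 3 (0.0588; over all alternatives 0.00575 to 0.0727). Tnfaip3 differed by -1.29 ± 0.284 (adjusted p = 0.0476), which was lost without any one array other than +/- LPS replicate 1 and -/- untreated replicate 2 (10 of 12; over all alternatives 0.00913 to 0.135). Its mean was 7.58 in +/- and 8.91 in -/- cells at rest, but 11.05 and 11.09 after LPS. The genotypes thus differed in Tnfaip3 at rest and not detectably after LPS (0.04, adjusted p = 0.923). Samhd1 differed by -0.92 ± 0.186 (adjusted p = 0.0319), lost without +/- untreated replicate 1 or 2, +/- LPS replicate 3, -/- untreated replicate 1 or 3 or any -/- LPS array (8 of 12; over all alternatives 0.00815 to 0.101). Azi2 differed by -0.92 ± 0.199 (adjusted p = 0.0447), lost without any one array other than +/- untreated replicate 3 and -/- untreated replicate 2 (10 of 12; over all alternatives 0.0147 to 0.13).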

How the results depend on the processing

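The genotype differences and LPS responses of Ddx58, Ifih1, Dhx58, Eif2ak2 and Zbp1 kept their direction and their calls under every alternative run, 22 for a genotype difference and 23 for an LPS response. The number of the 8 genes that rose with LPS was 5 to 6 in +/- and 5 in -/- cells. The number lower in -/- cells was 5 to 6 at rest and 6 to 7 after LPS. The number that fell with LPS in +/- cells was 2, but 1 after cyclic loess and 1 to 2 with each array left out. In -/- cells it was also 2, but 1 after cyclic loess, 1 with only the groups of the comparison, 1 with a replicate block over all groups, 1 without both arrays with Y-linked signal, and 1 to 2 with each array left out. After LPS the number higher in -/- cells was 0 to 1 with each array left out. The number called down for the difference of the responses was 0, and 1 with array weights.

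Differences of the responses near 0 changed sign: Ifih1 was at -0.06 after cyclic loess and -0.14 to 0.2 with each array left out, Zbp1 at -0.07 after quantile normalization, -0.11 after cyclic loess and -0.18 to 0.18 with each array left out, and Dhx58 at -0.43 to 0.09, the latter without -/- LPS replicate 2. With each array left out the LPS response of Cgas in -/- cells ran from -0.07 to 0.29 (below 0 without -/- untreated or -/- LPS replicate 3) and the resting difference of Mavs from -0.01 (without -/- untreated replicate 3) to 0.2. The cause was not tested. The replicate block within genotype changed the call of Cgas in +/- cells (0.70, adjusted p = 0.0309) and of no other of the 8 genes. The block over all groups ended the call of Mavs in -/- cells (adjusted p = 0.0615). Replicate numbers are not shown to pair arrays in either genotype. Over all genes, 288 were lower in resting -/- cells (167 to 562 over the alternatives) and 243 higher (99 to 624), with the fewest without -/- untreated replicate 1 and the most with array weights; without +/- untreated replicate 1, 146 were higher. After LPS 1195 were lower (775 without -/- LPS replicate 3, up to 1653) and 1932 higher (910 without -/- LPS replicate 3, 984 without +/- LPS replicate 3, 1170 without -/- LPS replicate 1, up to 2790). LPS raised 1913 (1271 to 2599) and lowered 3085 (2247 to 3429) in +/- cells, and raised 736 (521 to 1799) and lowered 1033 (576 without -/- untreated replicate 1, 592 to 662 without -/- untreated replicate 3 or -/- LPS replicate 1 or 2, up to 2624) in -/- cells. The responses differed upward for 61 (19 to 270) and downward for 155 (78 to 322), the fewest in both directions without -/- untreated replicate 1. The share called up or down in the background moves with these counts. Of 1799 values of list genes that met the naming rule 1679 kept their side of the threshold, 109 lost it, 11 gained it and 0 changed sign.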
